A study of Homo sapiens with 8 samples.

Results

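The MYC and MAX network is described here through 10 of its genes: MYC, MAX, MXD1, MXD3, MXD4, MXI1, MNT, MGA, MLX and MLXIP. They were found by symbol among the 60669 genes of the count tables, and all 10 passed the filter on low counts that left 17868 genes for testing. The libraries came from HCT116, a line from a human colon carcinoma. One line was WT, and the other carried the R350H change in DPF2, introduced into the genome with CRISPR/Cas9. DPF2 belongs to BAF, a complex that remodels chromatin. Both lines were either left untreated or exposed for 24 h to 0.5 µM doxorubicin, which traps topoisomerase II on broken DNA. Each of the 4 groups (untreated WT, WT with doxorubicin, untreated R350H, R350H with doxorubicin) held 2 libraries. The labels give neither the number of edited clones nor whether a group's libraries are separate cultures. P-values therefore measure only the spread between these libraries, and that spread may be technical. The DPF2 change cannot be told apart from any other difference between the lines.

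MYC and its relatives are transcription factors with a basic helix-loop-helix leucine zipper. MAX is the shared partner: MYC bound to MAX activates genes of growth, ribosome production and metabolism, while the MXD proteins, MXI1 and MNT compete for MAX and recruit the SIN3 corepressor to the same E-box sites. MGA also binds MAX and belongs to a variant Polycomb repressive complex, PRC1.6. In a parallel branch, MLX pairs with MLXIP (MondoA) or MLXIPL (ChREBP), which respond to glucose derivatives. MYC is a central effector of WNT signalling in colon carcinoma.

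The libraries held 28111673 to 33727374 counts. Mitochondrial transcripts made up 11.2 to 11.8% of an untreated library and 13.5 to 14.6% of one with doxorubicin, so every doxorubicin result moved with this share. Leaving those genes out before scaling changed the call of 1 member result (MNT between untreated lines). The edited gene, DPF2, had 94.7 and 92.7 CPM (counts per 1000000, with library sizes scaled by TMM) in untreated WT, 106.0 and 108.3 in WT with doxorubicin, 58.6 and 54.4 in untreated R350H and 54.3 and 53.5 in R350H with doxorubicin. Its mRNA was therefore lower in both R350H groups, and its level does not show the base change. The 9 epithelial markers, of which VIL1 had only 1 to 2 counts in untreated libraries, summed to 3868.1 to 4344.6 CPM in untreated WT, 5705.3 to 5784.9 in WT with doxorubicin, 3443.7 to 3459.3 in untreated R350H and 4422.2 to 4523.7 in R350H with doxorubicin. In R350H 6 of the 9 were lower and 0 higher in both states. Of all tested genes, 17.3% were higher and 19.5% lower untreated, and 19.1% and 21.0% with doxorubicin. The genotype differences below therefore moved with a change in these epithelial markers, whose part in them was not tested. The 8 blood markers summed to 1.29 to 1.54 CPM in untreated WT, 3.82 to 4.4 in WT with doxorubicin, 1.05 to 1.06 in untreated R350H and 3.13 to 3.92 in R350H with doxorubicin. This rise came with ITGAM, the only one of them tested (log2 changes of 2.46 ± 0.27 in WT and 2.38 ± 0.28 in R350H, adjusted p = 2.68e-08 and 5.33e-08), while PTPRC, which marks all white blood cells, had 0 to 2 counts in every library. It moved with the doxorubicin results, and its part in them was not tested. The 4 endothelial markers summed to 0.813 to 1.57 CPM. The 7 fibroblast markers summed to 34.3 to 89.7 CPM, nearly all of it COL1A1 (33.3 to 88.7 CPM), while COL1A2 was at 0 in 7 of the 8 libraries.

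Per length of annotated exons, MYC was the most abundant member in all 4 groups. That length counts every annotated exon of a gene, not the transcripts expressed, so the order of the genes depends on the annotation. On the scale of TPM (transcripts per 1000000, computed from the counts and exon lengths), MYC had 150.9 ± 0.14 (SD, n = 2) in untreated WT, 227.5 ± 0.98 in WT with doxorubicin, 112.6 ± 3.8 in untreated R350H and 198.4 ± 0.023 in R350H with doxorubicin. MLX came next in every group, at 56.6 ± 0.99, 51.7 ± 0.41, 48.7 ± 0.40 and 55.1 ± 0.49 TPM in the same order. In untreated WT cells MXI1 (39.2 ± 1.5), MXD4 (30.9 ± 0.75) and MLXIP (26.5 ± 0.16) followed, then MAX (22.6 ± 0.20) and MGA (22.3 ± 3.7), whose libraries overlapped and which were not ordered by these data. MXD3 (16.8 ± 0.94), MNT (14.7 ± 0.039) and MXD1 (11.6 ± 0.72) were the lowest. The order of the repressors differed between groups. MXD4 stood above MXI1 in R350H cells with doxorubicin (53.4 ± 1.4 against 35.1 ± 1.6) and below it in WT cells with doxorubicin (30.7 ± 1.0 against 48.1 ± 0.78), while in untreated R350H cells the libraries of these genes overlapped.

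The 7 partners of MAX among the members (MYC and the 6 that repress: MXD1, MXD3, MXD4, MXI1, MNT and MGA) were also set against each other within each library. MYC made up 52.1 and 53.2% of their summed TPM in untreated WT and 63.0 and 64.4% in WT with doxorubicin. In R350H cells its share was 46.2 and 46.7% untreated and 59.4 and 59.9% with doxorubicin. The shares of MYC did not overlap between any 2 of the 4 groups. The summed level of the 6 repressors lay between 125.4 and 138.5 TPM in all 8 libraries. Untreated R350H (127.8 and 131.6 TPM) lay below untreated WT (132.6 and 138.5) and R350H with doxorubicin (133.0 and 135.4), and the other pairs of groups overlapped. MXD4 held 8.5 and 8.66% of the partners' sum in WT with doxorubicin and 16.3 and 15.8% in R350H with doxorubicin. MYC exceeded MAX itself 6.63- to 6.71-fold in untreated WT, 8.7- to 8.87-fold in WT with doxorubicin, 4.88- to 5.21-fold in untreated R350H and 7.28- to 7.52-fold in R350H with doxorubicin. These are levels of mRNA in bulk samples, where fewer cells of a kind and less RNA per cell cannot be told apart, and protein was not measured. Shares and ratios between genes also depend on the annotated exon lengths.

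Tests were made with edgeR's quasi-likelihood test over all 17868 genes, and a gene was called where its Benjamini-Hochberg adjusted p was under 0.05. Doxorubicin raised 4 members in WT cells (MYC, MXI1, MAX and MNT) and lowered 2 (MXD3 and MXD1), against 24.1% of all tested genes called higher and 23.6% called lower. In R350H cells it raised 5 members (MYC, MXD4, MLXIP, MAX and MLX) and lowered 3 (MXD1, MXD3 and MNT), against 26.1% and 21.8% of all genes. Between untreated lines, 1 member was higher in R350H (MNT) and 4 were lower (MGA, MYC, MXI1 and MLX), with 17.3% and 19.5% of all genes called. With doxorubicin, 2 were higher in R350H (MXD4 and MXD3) and 5 were lower (MXI1, MXD1, MGA, MYC and MNT), with 19.1% and 21.0% of all genes called. The doxorubicin response itself differed between the lines for 5 members, 2 with a more positive response in R350H (MXD3 and MXD4) and 3 with a more negative one (MXD1, MNT and MXI1). Over all genes, 6.46% and 8.18% were called in these directions, so that 44.1% of those calls were positive, against 29.1% by DESeq2, 33.9% with median-ratio scaling, and 26.9% and 25% without R350H replicate 1 or 2 of doxorubicin. With 10 members, 1 gene moves a share by 10 percentage points, and the comparisons share groups, so these counts are not independent of each other. The members' median log2 change was 0.11 for doxorubicin in WT and 0.16 in R350H (all genes: -0.03 and 0.03), and their median genotype difference was -0.15 untreated and -0.19 with doxorubicin (all genes: -0.01 and 0.02).

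MYC (ENSG00000136997.20, chromosome 8, 127735434 to 127742951, hg38) rose with doxorubicin in both lines and was lower in R350H in both states. It had 227.2 and 234.1 CPM in untreated WT and 388.9 and 368.3 in WT with doxorubicin. In R350H it had 168.6 and 163.2 CPM untreated and 298.2 and 300.0 with doxorubicin. The libraries of the 4 groups did not overlap anywhere. The log2 change with doxorubicin was 0.71 ± 0.06 (SE) in WT, a 1.64-fold rise (edgeR adjusted p = 3.45e-10), and 0.85 ± 0.06 in R350H, a 1.8-fold rise (adjusted p = 1.04e-11). The difference between these responses, 0.14 ± 0.09, did not pass the test (adjusted p = 0.349), and the range of 2 SE around it ran from -0.04 to 0.31. Untreated R350H cells had 0.719 times the WT level (log2 difference -0.48 ± 0.06, adjusted p = 9.97e-07). With doxorubicin the ratio was 0.79 (log2 difference -0.34 ± 0.06, adjusted p = 7.89e-05), so treated R350H cells held more MYC mRNA than untreated WT cells and less than treated WT cells.

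Of the other MYC genes 1 was expressed. MYCN had 0 counts in all 8 libraries, which allows up to 3 counts in any of them. MYCL, expressed at 34.8 and 35.1 CPM in untreated WT, had 25.6 and 23.7 CPM in WT with doxorubicin, 25.9 and 29.0 in untreated R350H and 17.1 and 15.8 in R350H with doxorubicin. MYCL thus fell with doxorubicin in both lines, by 0.50 ± 0.08 on the log2 scale in WT and by 0.74 ± 0.09 in R350H (adjusted p = 1.82e-05 and 8.14e-08). Its genotype difference was -0.35 ± 0.08 untreated and -0.58 ± 0.09 with doxorubicin (adjusted p = 0.00154 and 6.53e-06), and the untreated call was lost without untreated R350H replicate 1.

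MYC lies in the distal part of chromosome 8, where genes were lower in the R350H line, and MYC was lower there too. Among 274 tested genes beyond 90 Mb (MYC left out), the median log2 difference between R350H and WT was -0.50 untreated (quartiles -0.77 and -0.22) and -0.49 with doxorubicin (quartiles -0.77 and -0.22). In this stretch 160 genes were lower and 15 higher in untreated R350H. On the rest of the chromosome, 334 genes had a median of -0.03 untreated and -0.02 with doxorubicin. MYC's -0.48 untreated was undercut by 145 of the 274 genes (52.9%), and its -0.34 with doxorubicin by 178 (65.0%). For the 21 tested genes within 3 Mb of MYC the medians were -0.62 and -0.68, with 12 lower and 0 higher untreated and 13 lower and 0 higher with doxorubicin. Without untreated WT replicate 1 the untreated median was -0.48. Whether the MYC difference shares a source with that of the region was not tested, and the number of copies of this stretch in either line was not measured.

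No other member lay in such a surrounding. The medians of genes within 3 Mb of the other 9 members ran from -0.10 (MLX, 163 genes) to 0.17 (MXD1, 40 genes) for untreated cells. With doxorubicin they ran from -0.15 (MAX, 41 genes) to 0.28 (MXI1, 23 genes). MGA and MXI1, both lower in R350H, therefore stood among genes with medians of -0.03 and 0.08 untreated. Around MLX, also lower in untreated R350H, 49 of the 163 genes were lower and 21 higher untreated, against 19.5% and 17.3% of all genes.

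Neighbours of MYC were described one by one, chosen after their values were seen. TRIB1, which encodes a pseudokinase, had mean levels of 274.9 CPM in untreated WT, 281.8 in WT with doxorubicin, 148.2 in untreated R350H and 180.6 in R350H with doxorubicin. Its genotype difference was -0.89 ± 0.06 untreated. SQLE, an enzyme of cholesterol synthesis, differed by -0.77 ± 0.08 untreated and -1.05 ± 0.08 with doxorubicin. Both neighbours were lower in R350H, as MYC was, but their responses to doxorubicin in WT (0.04 for TRIB1 and 0.41 for SQLE) were smaller than that of MYC. CASC19 and PCAT1, which lie nearer to MYC, did not pass the test between untreated lines (-0.09 ± 0.12 and 0.03 ± 0.30, adjusted p = 0.594 and 0.943). With doxorubicin they were lower in R350H (-0.75 ± 0.12 and -1.11 ± 0.34, adjusted p = 1.08e-04 and 0.0108). PCAT1 was near the detection limit, with group means of 0.633 to 1.45 CPM, and that call was lost in 2 of 16 alternatives. LRATD2, which starts close to PCAT1, was lower in R350H in both states (-0.96 ± 0.06 untreated and -1.63 ± 0.07 with doxorubicin, adjusted p = 2.95e-12 and 2.94e-17). Of 7 tested genes within 1 Mb of MYC, 3 were lower and 0 higher untreated. The 21 neighbours had a median response of 0.36 in WT and 0.31 in R350H. Noncoding RNAs near MYC were a list of 6, of which 4 were tested. Doxorubicin raised 2 and lowered 0 in WT (all genes: 24.1% and 23.6%) and raised 2 and lowered 1 in R350H (26.1% and 21.8%). In R350H 0 were higher in either state, with 2 lower untreated and 3 with doxorubicin (all genes lower: 19.5% and 21.0%). When 1 library was left out, the counts in R350H with doxorubicin against untreated were 1 to 2 higher and 0 to 1 lower, and 1 to 2 were lower between untreated lines. PVT1, transcribed from just downstream of MYC, rose with doxorubicin by 0.93 ± 0.07 in WT and 0.84 ± 0.07 in R350H (adjusted p = 4.33e-11 and 3.09e-10). It had 46.7 and 50.1 CPM in untreated WT, 84.7 and 99.3 in WT with doxorubicin, 42.1 and 42.0 in untreated R350H and 76.1 and 74.6 in R350H with doxorubicin. Its untreated genotype difference of -0.20 ± 0.08 (adjusted p = 0.0387) was smaller in size than that of MYC and lost its call in 9 of 16 alternatives. CASC8 also rose in both lines (1.29 ± 0.19 in WT and 0.91 ± 0.27 in R350H, adjusted p = 2.72e-06 and 0.00581; the R350H call was lost without R350H replicate 2 of doxorubicin) and was lower in R350H (-1.58 ± 0.25 untreated and -1.95 ± 0.20 with doxorubicin, adjusted p = 1.17e-05 and 8.51e-09), from at most 6.47 CPM. CASC11 was near the detection limit, at 0.11 to 0.53 CPM.

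MAX (ENSG00000125952.20, chromosome 14, 65006174 to 65102695) rose with doxorubicin in both lines. It had 46.2 and 48.2 CPM in untreated WT, 59.9 and 57.8 in WT with doxorubicin, 44.1 and 45.7 in untreated R350H and 54.1 and 56.2 in R350H with doxorubicin. The changes were 0.32 ± 0.07 in WT and 0.30 ± 0.07 in R350H (adjusted p = 4.06e-04 and 7.71e-04), about 1.25-fold and 1.23-fold. Treated and untreated libraries did not overlap in either line. Without R350H replicate 2 of doxorubicin the change in R350H was 0.24 (adjusted p = 0.054). The difference between the responses was -0.02 ± 0.10, and the range of 2 SE ran from -0.22 to 0.17. The genotype differences of MAX, -0.07 ± 0.07 untreated and -0.09 ± 0.07 with doxorubicin, did not pass the test (adjusted p = 0.462 and 0.301). FNTB and 2 other genes on the opposite strand share 16.1% of the exon bases of MAX.

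The MXD genes, whose proteins accumulate in many cells as these stop dividing, moved in different directions. MXD3 (ENSG00000213347.10, chromosome 5, 177301461 to 177312757), a family member known for its expression in cycling cells, fell in both lines. It had 27.3 and 30.5 CPM in untreated WT and 8.73 and 11.4 in WT with doxorubicin, a drop to 0.351 times the level (log2 change -1.51 ± 0.11, adjusted p = 6.72e-11). In R350H it had 25.7 and 25.3 CPM untreated and 13.6 and 16.5 with doxorubicin (log2 change -0.76 ± 0.11, adjusted p = 2.58e-06). The fall was smaller in R350H, by 0.75 ± 0.16 (adjusted p = 0.00177), and the treated libraries of the lines did not overlap. Values of MXD3 are uncertain in part, because RAB24 shares 18.0% of its exon bases on the same strand and PRELID1 overlaps 22.3% on the opposite one.

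MXD1 (MAD1; ENSG00000059728.11, chromosome 2, 69897688 to 69942945) showed the opposite order. It had 25.3 and 23.9 CPM in untreated WT, 20.5 and 20.9 in WT with doxorubicin, 26.2 and 28.3 in untreated R350H and 14.1 and 13.6 in R350H with doxorubicin. Treated R350H cells thus had the lowest levels, below all other libraries. The log2 change was -0.98 ± 0.09 in R350H (adjusted p = 5.25e-10). In WT it was -0.25 ± 0.09 (adjusted p = 0.0212), and that call was lost in 8 of 16 alternatives, by DESeq2 (-0.23, adjusted p = 0.076) and without untreated WT replicate 1 (-0.20, adjusted p = 0.119) among others. Without either library of WT with doxorubicin it was -0.23 and -0.22 (adjusted p = 0.0747 and 0.0867), and without either library of R350H with doxorubicin -0.22 (adjusted p = 0.0643 and 0.0665). The responses differed by -0.73 ± 0.12 (adjusted p = 1.34e-04). With doxorubicin, R350H cells had 0.666 times the WT level of MXD1 (adjusted p = 8.21e-06).

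MXD4 (ENSG00000123933.17, chromosome 4, 2247432 to 2262109) rose only in R350H by the test. Its levels were 68.7 and 73.1 CPM in untreated WT, 77.0 and 75.9 in WT with doxorubicin, 77.3 and 74.6 in untreated R350H and 122.4 and 118.8 in R350H with doxorubicin. The first 3 groups therefore lay within 68.7 to 77.3 CPM, and the last stood apart. The log2 change was 0.67 ± 0.06 in R350H (1.59-fold, adjusted p = 1.43e-09) and 0.11 ± 0.07 in WT (adjusted p = 0.175), and the difference between these was 0.56 ± 0.09 (adjusted p = 7.94e-05). With doxorubicin the lines differed 1.58-fold (adjusted p = 3.03e-09), while untreated they differed by 0.10 ± 0.07 on the log2 scale (adjusted p = 0.24).

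MXI1 (MXD2; ENSG00000119950.21, chromosome 10, 110207605 to 110287365) was lower in R350H in both states. It had 78.1 and 76.2 CPM in untreated WT, 107.4 and 98.8 in WT with doxorubicin, 62.3 and 64.4 in untreated R350H and 70.2 and 66.3 in R350H with doxorubicin. Every R350H library lay below every WT library. The genotype difference was -0.28 ± 0.07 untreated and -0.60 ± 0.07 with doxorubicin (adjusted p = 0.0014 and 3.72e-08). Doxorubicin raised MXI1 in WT by 0.42 ± 0.07 (adjusted p = 7.62e-06), and the change in R350H was 0.11 ± 0.07 (adjusted p = 0.205). The difference between these responses, -0.31 ± 0.09 (adjusted p = 0.0246), lost its call in 5 of 15 alternatives. These were the fits without WT replicate 1 of doxorubicin (-0.25), without either library of untreated R350H (-0.34 and -0.29) and without R350H replicate 2 of doxorubicin (-0.33). The last was without the 2 libraries of strand setting 1, untreated WT replicate 1 and untreated R350H replicate 2 (-0.31).

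MNT (ENSG00000070444.15, chromosome 17, 2384073 to 2401104), the broadly expressed antagonist of MYC, had the least settled pattern. It had 42.0 and 43.3 CPM in untreated WT, 46.2 and 55.7 in WT with doxorubicin, 53.3 and 45.8 in untreated R350H and 41.1 and 42.7 in R350H with doxorubicin. WT with doxorubicin and untreated R350H spread the most and overlapped one another. The changes with doxorubicin had opposite signs, 0.26 ± 0.09 in WT and -0.24 ± 0.09 in R350H (adjusted p = 0.0155 and 0.0215), and they differed by -0.50 ± 0.12 (adjusted p = 0.00561). The call of the WT change was lost in 4 of 16 alternatives. Without WT replicate 2 of doxorubicin the WT change was 0.16, and without untreated WT replicate 1 it was 0.23. It was also 0.23 without the libraries of strand setting 1, and 0.19 with upper-quartile scaling (adjusted p = 0.0689). Without untreated R350H replicate 1 the R350H change was -0.13 (adjusted p = 0.355) and the difference between responses -0.39 (adjusted p = 0.0739). Without R350H replicate 1 of doxorubicin the R350H change was -0.24 (adjusted p = 0.0801). The untreated genotype difference of 0.22 ± 0.09 (adjusted p = 0.0489) lost its call in 7 of 16 alternatives: without untreated WT replicate 1 or 2 (adjusted p = 0.218 and 0.12), without untreated R350H replicate 1 (0.10, adjusted p = 0.509), by DESeq2 (adjusted p = 0.0681) and without mitochondrial genes (adjusted p = 0.0512) among them. With doxorubicin the genotype difference was -0.28 ± 0.09 (adjusted p = 0.00997), and -0.20 without WT replicate 2 of doxorubicin (adjusted p = 0.0865).

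Promoters of the members were searched for CACGTG, the palindromic E-box that MYC, MAX and the MXD proteins are known to bind. RefSeq promoter windows (GRCh38.p14, from 250 bases before to 50 after a start) matched 9 of the 10 members (all but MYC), with 14 windows, and 3 of these, for MXD4, MNT and MLX, held 1 copy each. Over all 35116 promoters of the same length, 2548 (7.26%) held the motif, which reads the same on both strands. The stretch of each window that lies before the GENCODE gene of the count tables is printed 5′ to 3′ on the strand of the gene, with the motif in capitals, because these 3 members hold the site that the network itself recognises and had different patterns: doxorubicin raised MXD4 in R350H, its change in MNT had opposite signs in the lines, and MLX was low in untreated R350H. Counted from the first base of that gene, the copy begins 238 bases before it in MXD4 (chr4:2262110-2262359, minus strand), 149 in MNT (chr17:2401105-2401310, minus strand) and 18 in MLX (chr17:42566850-42567067, plus strand).
MXD4: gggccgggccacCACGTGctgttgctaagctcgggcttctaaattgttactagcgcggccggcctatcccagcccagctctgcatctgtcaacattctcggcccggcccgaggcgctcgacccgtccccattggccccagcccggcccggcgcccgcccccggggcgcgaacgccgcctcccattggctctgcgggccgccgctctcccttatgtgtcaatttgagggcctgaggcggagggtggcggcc
MNT: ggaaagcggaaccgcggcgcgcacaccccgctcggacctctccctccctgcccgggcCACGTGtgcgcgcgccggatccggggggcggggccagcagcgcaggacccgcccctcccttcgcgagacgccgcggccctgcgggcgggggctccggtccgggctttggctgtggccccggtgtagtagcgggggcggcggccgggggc
MLX: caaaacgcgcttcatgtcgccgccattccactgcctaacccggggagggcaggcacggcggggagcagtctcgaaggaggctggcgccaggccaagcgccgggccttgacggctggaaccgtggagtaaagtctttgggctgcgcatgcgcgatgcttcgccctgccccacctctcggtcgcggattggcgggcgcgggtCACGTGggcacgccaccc
A match is a description of these letters. Binding was not measured in these libraries.

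MGA (ENSG00000174197.16, chromosome 15, 41621224 to 41773081) was lower in R350H in both states and did not pass the test for doxorubicin in either line. It had 144.7 and 117.6 CPM in untreated WT, 128.5 and 131.4 in WT with doxorubicin, 87.5 and 88.8 in untreated R350H and 90.5 and 90.5 in R350H with doxorubicin. All R350H libraries lay below all WT libraries, although untreated WT spread more than the other groups. R350H cells had 0.671 times the WT level untreated (log2 difference -0.58 ± 0.07, adjusted p = 8.10e-07) and 0.696 times with doxorubicin (-0.52 ± 0.07, adjusted p = 2.94e-06). The untreated difference was -0.42 without untreated WT replicate 1 and -0.72 without untreated WT replicate 2. The changes with doxorubicin were -0.02 ± 0.07 in WT and 0.04 ± 0.08 in R350H (adjusted p = 0.885 and 0.714). Shares of all genes called higher and lower in R350H were 17.3% and 19.5% untreated, and 19.1% and 21.0% with doxorubicin. For the doxorubicin responses they were 24.1% and 23.6% in WT, and 26.1% and 21.8% in R350H. The partners of MGA in PRC1.6 were a list of 11. In untreated cells 5 of them were higher in R350H and 3 lower, with a median difference of 0.16, and these counts were 3 to 5 and 1 to 3 when 1 library was left out. Doxorubicin raised 4 (2 to 4 when 1 library was left out) and lowered 1 in WT, and raised 3 and lowered 4 (1 to 4) in R350H. Between untreated lines PCGF6, the subunit that defines this Polycomb complex, was lower in R350H (-0.57 ± 0.09, adjusted p = 2.24e-05), and RYBP was higher (0.43 ± 0.07, adjusted p = 1.85e-05). PCGF6 was also lower with doxorubicin (-0.54 ± 0.10, adjusted p = 4.46e-05), where 2 of the list were higher (0 to 2 when 1 library was left out) and 1 lower.

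MLX (ENSG00000108788.11, chromosome 17, 42567068 to 42573239) and MLXIP (ENSG00000175727.14, chromosome 12, 122078756 to 122147344) form the glucose-responsive branch. MLX had 80.2 and 80.5 CPM in untreated WT, 81.9 and 78.0 in WT with doxorubicin, 66.6 and 66.8 in untreated R350H and 76.5 and 78.0 in R350H with doxorubicin. Only the untreated R350H libraries were below the rest. The untreated genotype difference was -0.27 ± 0.06 (adjusted p = 0.00155), and the difference with doxorubicin was -0.05 ± 0.06 (adjusted p = 0.571). MLX rose in R350H with doxorubicin by 0.21 ± 0.06 (adjusted p = 0.00765). That call was lost without untreated R350H replicate 1 (0.21, adjusted p = 0.0536) and without either R350H library of doxorubicin (0.20 and 0.17, adjusted p = 0.0966 and 0.172). PSMC3IP overlaps 18.1% of the exon bases of MLX on the opposite strand.

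MLXIP had 121.5 and 123.9 CPM in untreated WT and 123.4 and 143.2 in WT with doxorubicin, where the libraries of the groups overlapped. In R350H it had 112.3 and 114.5 CPM untreated and 140.6 and 140.4 with doxorubicin. The rise in R350H was 0.31 ± 0.07 (adjusted p = 4.29e-04). In WT the change was 0.12 ± 0.07 (adjusted p = 0.15), and without WT replicate 1 of doxorubicin it was 0.23 (adjusted p = 0.0101). The difference between the responses, 0.19 ± 0.10, did not pass the test (adjusted p = 0.208). MLXIPL, which pairs with MLX as MLXIP does, passed no test, with 78.9 and 89.6 CPM in untreated WT, 84.8 and 119.5 in WT with doxorubicin, 87.0 and 85.1 in untreated R350H and 91.2 and 92.6 in R350H with doxorubicin.

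Of 8 genes known as targets of MLX dimers, 6 were tested. Doxorubicin raised 4 and lowered 1 in WT (median log2 change 0.40) and raised 4 and lowered 2 in R350H (median 0.34). Over all genes, 24.1% and 23.6% were called higher and lower in WT, and 26.1% and 21.8% in R350H. FASN, ACLY and ACACA, enzymes of fatty acid synthesis, rose in both lines, FASN by 0.98 ± 0.07 in WT and 1.16 ± 0.07 in R350H (adjusted p = 2.81e-12 and 6.81e-14). ARRDC4, an arrestin-domain gene that MondoA is known to activate, had 103.7 and 108.9 CPM in untreated WT, 127.0 and 118.9 in WT with doxorubicin, 152.5 and 157.1 in untreated R350H and 100.1 and 102.2 in R350H with doxorubicin. Its response differed between the lines by -0.82 ± 0.09 (adjusted p = 1.62e-07). SCD, a fatty acid desaturase, was lower in R350H, by -0.68 ± 0.07 untreated and -1.02 ± 0.07 with doxorubicin (adjusted p = 7.65e-09 and 1.99e-12). TXNIP, the best known MondoA target, had 1 count in all 8 libraries together and was not tested.

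Genes known to be activated by MYC rose with doxorubicin and were lower in R350H more often than the reverse. Of 33 such genes, all tested, 21 were higher and 3 lower with doxorubicin in WT (median log2 change 0.40, against -0.03 over all genes). In R350H, 21 were higher and 6 lower (median 0.32, against 0.03). Between untreated lines 3 were higher and 19 lower in R350H (median -0.28, against -0.01), and with doxorubicin 3 were higher and 21 lower (median -0.31, against 0.02). Shares of all genes called higher and lower were 24.1% and 23.6% for doxorubicin in WT, and 26.1% and 21.8% in R350H. Between the lines they were 17.3% and 19.5% untreated, and 19.1% and 21.0% with doxorubicin. BOP1 is the only one of the 33 in the distal part of chromosome 8, and without it 18 of 32 were lower untreated and 20 of 32 with doxorubicin. The lists were chosen with results of these data known, and they hold genes that factors other than MYC also act on.

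NOLC1, a nucleolar protein of ribosome production, had 276.2 and 264.2 CPM in untreated WT and 584.5 and 547.9 in WT with doxorubicin. In R350H it had 253.2 and 260.1 CPM untreated and 391.0 and 402.8 with doxorubicin. Both lines thus rose without overlap, and the rise was smaller in R350H, by 0.44 ± 0.09 on the log2 scale (difference -0.44, adjusted p = 0.00133). POLR1B, a subunit of RNA polymerase I, rose by 0.91 ± 0.07 in WT and 0.73 ± 0.07 in R350H (adjusted p = 5.36e-12 and 4.73e-10). MCM4, part of the helicase that unwinds DNA for replication, had 82.3 and 78.0 CPM in untreated WT and 145.9 and 144.3 in WT with doxorubicin. In R350H it had 50.7 and 48.2 CPM untreated and 76.9 and 78.8 with doxorubicin, so that treated R350H cells were at about the level of untreated WT cells. HK2, a hexokinase, had 46.5 and 47.8 CPM in untreated WT and 82.6 and 77.4 in WT with doxorubicin, and 42.7 and 45.6 followed by 36.2 and 35.9 in R350H. Its responses differed by -1.06 ± 0.10 (adjusted p = 1.20e-08). TFRC, the transferrin receptor, went against the list: it was higher in untreated R350H by 1.11 ± 0.07 (adjusted p = 1.68e-12). With doxorubicin FBL fell in both lines (-0.28 in WT and -0.43 in R350H) and SHMT2 fell in R350H (-0.60), against 21 genes that rose in each line. Responses differed between the lines for 10 of the 33 genes, 8 of them more negative in R350H and 2 more positive, against 8.18% and 6.46% of all genes. When 1 library was left out, 7 to 13 were more negative, 13 without WT replicate 2 of doxorubicin, and 0 to 3 more positive.

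Genes that MYC is known to repress did not move one way. Of 10 such genes 9 were tested, and doxorubicin raised 5 and lowered 2 in WT (median 0.20) and raised 3 and lowered 5 in R350H (median -0.37). All genes were called higher and lower at 24.1% and 23.6% in WT, and 26.1% and 21.8% in R350H. Between the lines these shares were 17.3% and 19.5% untreated, and 19.1% and 21.0% with doxorubicin. In R350H 3 were higher and 3 lower untreated, 6 being higher without untreated WT replicate 2, and 0 were higher and 4 lower with doxorubicin. CDKN1A, which encodes the cell cycle inhibitor p21 and is also a main target of p53, had 521.9 and 568.4 CPM in untreated WT, 2048.1 and 1957.8 in WT with doxorubicin, 962.0 and 1067.8 in untreated R350H and 1863.5 and 1917.0 in R350H with doxorubicin. Untreated R350H cells stood above untreated WT (0.90 ± 0.07, adjusted p = 1.20e-10), and the difference with doxorubicin was -0.08 ± 0.07 (adjusted p = 0.376). CDKN2B, which encodes p15, was lower in R350H by -1.64 ± 0.08 untreated and -1.41 ± 0.08 with doxorubicin (adjusted p = 1.08e-15 and 3.47e-14). GADD45A, a stress-response gene, had 118.2 and 131.4 CPM in untreated WT and 143.6 and 143.9 in WT with doxorubicin, but 169.0 and 189.1 followed by 73.3 and 81.7 in R350H. Its responses differed by -1.41 ± 0.10 (adjusted p = 6.91e-11). NDRG1 lies in the distal part of chromosome 8 and was lower in R350H in both states (-0.58 ± 0.07 and -1.43 ± 0.07, adjusted p = 1.32e-07 and 2.55e-15).

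Cofactors through which MYC acts were a list of 13. For comparison, doxorubicin raised 24.1% and lowered 23.6% of all genes in WT, and 26.1% and 21.8% in R350H. Between the lines 17.3% of all genes were higher and 19.5% lower untreated, and 19.1% and 21.0% with doxorubicin. Doxorubicin raised 6 and lowered 2 in WT (1 to 2 lower when 1 library was left out; median 0.08), and raised 4 and lowered 3 in R350H (median 0.07). RUVBL1, an ATPase of the TIP60 complex, rose by 0.79 ± 0.07 in WT and 0.98 ± 0.07 in R350H (adjusted p = 1.33e-10 and 1.71e-12). KAT2A, the acetyltransferase GCN5, rose by 0.68 ± 0.07 and 0.96 ± 0.08 (adjusted p = 1.91e-08 and 2.75e-11). In R350H 1 was higher (0 to 2 when 1 library was left out) and 6 were lower than in WT untreated, and 0 were higher and 5 lower (3 to 6) with doxorubicin. ZBTB17, the MIZ1 protein through which MYC represses genes, was lower in R350H in both states (-0.49 ± 0.08 and -0.38 ± 0.08, adjusted p = 2.09e-05 and 3.14e-04).

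Genes that control the life of the MYC protein were a list of 10. Shares of all genes raised and lowered by doxorubicin were 24.1% and 23.6% in WT, and 26.1% and 21.8% in R350H. Those higher and lower in R350H were 17.3% and 19.5% untreated, and 19.1% and 21.0% with doxorubicin. Doxorubicin raised 2 and lowered 5 in WT (median -0.20), and raised 1 and lowered 5 in R350H (1 to 2 higher and 3 to 5 lower when 1 library was left out; median -0.15). In R350H 5 were higher and 1 lower (0 to 1) untreated, and 3 were higher (1 to 3) and 1 lower (1 to 2) with doxorubicin. FBXW7, the ubiquitin ligase subunit that marks MYC for destruction, rose by 0.65 ± 0.07 in WT and 0.45 ± 0.07 in R350H (adjusted p = 2.78e-08 and 6.52e-06). CIP2A, which shields MYC from dephosphorylation, fell in both lines, by 0.44 ± 0.08 in WT and 0.92 ± 0.08 in R350H (adjusted p = 5.12e-05 and 1.54e-10). SKP2, another ligase subunit that acts on MYC, had 32.1 and 30.6 CPM in untreated WT, 24.2 and 25.2 in WT with doxorubicin, 60.9 and 63.4 in untreated R350H and 60.4 and 59.1 in R350H with doxorubicin. It was the turnover gene with the largest genotype difference, 0.99 ± 0.07 untreated and 1.27 ± 0.07 with doxorubicin (adjusted p = 1.65e-11 and 9.35e-14). SKP2 lies on chromosome 5 (start 36151989), and whether its neighbours differed between the lines was not tested here. MYC protein and its stability were not measured.

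The SIN3 corepressor, which the MXD proteins and MNT recruit, was a list of 12. For this list and the next, doxorubicin raised 24.1% and lowered 23.6% of all genes in WT, and 26.1% and 21.8% in R350H. Between the lines 17.3% of all genes were higher and 19.5% lower untreated, and 19.1% and 21.0% with doxorubicin. Doxorubicin raised 1 and lowered 1 in WT (0 to 1 higher and 1 to 2 lower when 1 library was left out; median -0.06), and raised 3 and lowered 3 in R350H (1 to 3 each; median -0.01). In R350H 1 was higher (0 to 2) and 4 lower (2 to 4) untreated, and 3 were higher (0 to 3) and 4 lower with doxorubicin. SIN3A had 94.8 to 105.0 CPM in all 8 libraries. SIN3B was lower in R350H with doxorubicin (-0.37 ± 0.07, adjusted p = 4.84e-05). Its untreated genotype difference of -0.19 lost its call in 8 of 16 alternatives. NCOR1, a corepressor scaffold, fell by 0.58 ± 0.08 in WT and by 0.49 ± 0.08 in R350H (adjusted p = 8.56e-06 and 6.15e-05). RBBP4, a histone chaperone, was lower in untreated R350H (-0.57 ± 0.06, adjusted p = 5.88e-08). WNT regulators that act on MYC were a list of 9, of which 8 were tested. Doxorubicin raised 2 and lowered 1 in WT (0 to 1 lower when 1 library was left out), and raised 4 and lowered 0 in R350H. In R350H 1 was higher (1 to 2) and 2 lower untreated, and 3 were higher and 2 lower with doxorubicin. TCF7, a transcription factor of the pathway, rose in both lines (0.69 ± 0.10 and 1.02 ± 0.09, adjusted p = 8.69e-07 and 5.83e-10). TCF7L2, from the same list, rose in R350H (0.53 ± 0.07, adjusted p = 1.48e-07). In WT its means were 192.1 CPM untreated and 206.5 with doxorubicin. The responses of TCF7L2 differed by 0.43 ± 0.09 (adjusted p = 0.00201), a call lost in 1 of 15 alternatives. CTNNB1, which encodes β-catenin, was higher in R350H with doxorubicin (0.38 ± 0.06, adjusted p = 2.08e-05), and BCL9L, its coactivator, was lower (-0.68 ± 0.06, adjusted p = 2.05e-09). Between untreated lines they differed by 0.24 ± 0.06 and -0.56 ± 0.06 (adjusted p = 0.00391 and 8.59e-08), and the CTNNB1 call was lost in 1 of 16 alternatives.

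The genes most like each member in pattern were sought by Pearson's correlation of log2 CPM over the 8 libraries, among the 11276 named genes whose mean was 5 CPM or more. The 8 points hold only 4 groups, so high values are common and are given as a description. For MYC the highest were DDB1 (0.998), PYGL (0.998), DHX37 (0.997), AK4 (0.997) and TSKU (0.996), and the lowest were ENOX2 and NR2F1-AS1 (both -0.992). DDB1 encodes a damage-binding adaptor of ubiquitin ligases, and PYGL a glycogen phosphorylase. MXD1 was most like TUBE1 (0.994) and BRCA1 (0.993), the latter a DNA repair gene. MXD3 was most like PCBD2 (0.987) and CARD8 (0.985), MXD4 like IQCE and PTPN6 (both 0.994) and MXI1 like C1orf116 and ELK3 (both 0.993). MAX was most like MRPL39 (0.994), MLX like MRPS27 (0.991) and SENP3 (0.988), MLXIP like RRP7BP (0.99) and CUL9 (0.985) and MGA like the zinc finger genes ZNF268 (0.992) and ZNF121 (0.987). MNT had no close match, with FAM86B1 (0.866) and SNHG11 (0.857) the highest. Among the members themselves, MYC and MAX were the most alike (0.96), and MXD1 and MXD4 the most opposed (-0.93).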

How the data were processed

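Per the labels' protocols, TRIzol RNA of HCT116 cells was made into 8 libraries with a TruSeq kit that keeps the strand; each was mapped to 1 of 4 groups from its label. The authors deposited 1 table of whole-number counts per gene and library. Per the file headers, fragments on GENCODE 34 exons were counted by featureCounts 2.0.1 (mapping quality 10 or more), with strand setting 1 in untreated WT replicate 1 and untreated R350H replicate 2 and setting 2 in the other 6. The genome was hg38, per the submitters' processing notes, which name STAR 2.7.5a, Trim Galore 0.6.10, FastQC 0.11.4, DESeq2 1.36.0 and, unlike the headers, featureCounts 1.5.0-p1. A deposited table of a subset of genes held no member and was not used.

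Symbols were assigned by gene ID (42013 of 60669 genes). The filter filterByExpr kept 17868 genes, 15814 with a symbol, holding 99.93% of the counts. The main test was the robust quasi-likelihood test of edgeR 4.0.16 (R 4.3.3) after TMM scaling. All 8 libraries entered with a mean for each group, which leaves 4 residual degrees of freedom and a biological coefficient of variation of 5.35%. P-values were two-sided, adjusted by Benjamini-Hochberg over every tested gene, and called under 0.05. The 5 contrasts were doxorubicin in each line, R350H against WT in each state, and the difference between the doxorubicin responses. Errors are SE of the fit for log2 changes and SD for levels. TPM were computed from counts and exon lengths over all genes and were not TMM-scaled. The fit was also run on counts simulated from its own estimates, with the same spread in every group. Such a run cannot show whether these estimates suit the libraries. No pair of libraries in a group was a copy: chi-square per gene was 1.93 to 7.85. The precision of a level is limited by 2 libraries per group.

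The members, the gene lists and the tests were chosen with earlier results of these data known. The text names all members, MYCN, MYCL and MLXIPL, from every list at most 4 genes a contrast, those of lowest adjusted p, and for likeness the 5 highest and 2 lowest correlations with MYC and the 2 highest with each other member (1 of these is not reported here); single values of further list genes (SIN3A, COL1A1, COL1A2, TXNIP) and neighbours of MYC were chosen after seeing their values. Alternatives were DESeq2 1.42.0, other scalings, no filter, fewer libraries, a replicate block, and other windows around MYC. Same-numbered libraries did not deviate together (correlations -0.0759 to 0.041). Promoter sequences are from RefSeq (GRCh38.p14). Python 3.11.15 and matplotlib 3.10.9 made the figures.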

Additional observations from a re-analysis of the deposited data

Results flagged for a closer look

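The doxorubicin response of 5 members differed between the lines by edgeR's test of the difference itself, over 17868 genes. The response in R350H minus that in WT was -0.73 ± 0.12 (SE, log2 scale) for MXD1, 0.75 ± 0.16 for MXD3, 0.56 ± 0.09 for MXD4, -0.31 ± 0.09 for MXI1 and -0.50 ± 0.12 for MNT (adjusted p = 1.34e-04, 0.00177, 7.94e-05, 0.0246 and 0.00561). Over all genes, 6.46% were called higher and 8.18% lower in this comparison. MGA (0.05 ± 0.11), MYC (0.14 ± 0.09) and MAX (-0.02 ± 0.10) did not pass (adjusted p = 0.804, 0.349 and 0.924). The calls of MXD1, MXD3 and MXD4 held in all 15 alternatives, and those of MXI1 and MNT were lost in 5 and 1.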

How the results depend on the processing

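Of 50 member results, 31 were called, and 22 of these kept their call and direction in every alternative; 9 lost the call in at least 1, as given beside them, and 1 uncalled result gained one. No called result changed sign, and uncalled values changed sign 26 times. For doxorubicin in WT the count of members called was 6, with 4 to 6 when 1 library was left out, 5 by DESeq2, 5 with upper-quartile scaling and 4 without the libraries of strand setting 1. In R350H the count was 8, and 6 to 8 when 1 library was left out. It was 5 (4 to 5) between untreated lines and 7 (6 to 7) with doxorubicin. For the difference between responses it was 5, and 3 to 5, with 3 without untreated R350H replicate 1; over all genes the 2617 calls became 1620 and 1624 without either library of untreated R350H, 1654 and 1669 without either of R350H with doxorubicin, and 1735 without the libraries of strand setting 1. The replicate numbers carry no pairing in the labels or the data; with a replicate block the counts were 6, 8, 4, 7 and 5, in the order above, and MNT untreated lost its call (0.22, adjusted p = 0.0569). The untreated median within 3 Mb of MYC was -0.62, ran from -0.66 to -0.48 when 1 library was left out (-0.48 without untreated WT replicate 1), and was -0.51 without the libraries of strand setting 1, -0.64 within 1 Mb and -0.54 within 10 Mb. For the difference between responses, fitting only the libraries compared is the same fit. With a library left out, the lone one of its group is assumed to vary like the others. The causes of these shifts were not tested.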
